A study of Mus musculus with 5 samples.

Results

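The 10 genes followed here are the checkpoint receptors Ctla4, Icos, Pdcd1, Lag3, Tigit and Havcr2, the regulatory T cell genes Foxp3 and Il2ra, and the PD-1 ligands Cd274 and Pdcd1lg2, out of 27998 genes in the count tables. They were read in T cells, taken as cells with at least 2 unique molecular identifiers (UMIs) of Cd3d, Cd3e and Cd3g together, which made 263 of the 10718 cells kept. The 2 ligands were also read in macrophage, dendritic and tumour cells. The Cd3 rule did not use the level of any of the 10 genes. The macrophage, dendritic and tumour classes came from clusters built on variable genes, which may include some of the 10. The 10 genes were chosen with earlier results of these data known.

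The libraries came from 5 untreated mouse tissues, loaded as single-cell suspensions on the 10x Genomics Chromium 3' v2 system. They were late KIC pancreatic cancer at 60 days, early KIC cancer at 40 days, late KPC cancer at 6 months, late KPfC cancer at 60 days and normal pancreas at 60 days. Late KPfC was on a C57BL/6 background and the other libraries were on a mixed C57BL/6 and FVB background. In their usual form these Cre-driven models carry loss of Cdkn2a in KIC, a mutant Trp53 in KPC and loss of Trp53 in KPfC, among other alleles, but the sources used here do not name the alleles or the Cre driver of these mice. Each group was 1 library, so no difference between groups has a replicate check, model, age and background cannot be told apart from the library, and no p-value is given. Late KIC and normal pancreas each held cells with Xist and no Y-linked UMI as well as cells with a Y-linked UMI and no Xist.

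CTLA-4 competes with CD28 for the B7 ligands CD80 and CD86 and restrains T cell activation, while ICOS, its neighbour in the genome, costimulates through ICOSL. PD-1, encoded by Pdcd1, is induced by antigen receptor signalling and is engaged by PD-L1 (Cd274) and PD-L2 (Pdcd1lg2), and LAG-3, TIGIT and TIM-3 (Havcr2) are further inhibitory receptors found on chronically stimulated T cells. FOXP3 is the lineage factor of regulatory T cells, which carry high CTLA-4 and the interleukin 2 receptor alpha chain (Il2ra).

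The 2 ligand genes lie side by side on chromosome 19, with 22823 bases between the end of Cd274 and the start of Pdcd1lg2, and both are on the plus strand. Ctla4 and Icos are neighbours on chromosome 1, 62094 bases apart. The promoter windows of the ligands are shown because the neighbours differed in which cells held them, and that of Havcr2 because its UMIs lay mostly outside T cells. Each is the 250 bases before the RefSeq start on GRCm38.p6, at chr19:29367188-29367437 (+), chr19:29410669-29410918 (+) and chr11:46454681-46454930 (+).

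Cd274: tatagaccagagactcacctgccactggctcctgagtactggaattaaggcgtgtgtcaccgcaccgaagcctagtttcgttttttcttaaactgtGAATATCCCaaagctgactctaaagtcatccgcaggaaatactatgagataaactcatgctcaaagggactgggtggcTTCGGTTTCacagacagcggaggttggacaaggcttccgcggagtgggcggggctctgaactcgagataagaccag

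Pdcd1lg2: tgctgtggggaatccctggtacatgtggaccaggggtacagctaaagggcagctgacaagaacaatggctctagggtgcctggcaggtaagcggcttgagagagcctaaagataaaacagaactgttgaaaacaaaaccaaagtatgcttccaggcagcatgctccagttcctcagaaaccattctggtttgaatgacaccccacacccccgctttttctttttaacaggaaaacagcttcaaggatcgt

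Havcr2: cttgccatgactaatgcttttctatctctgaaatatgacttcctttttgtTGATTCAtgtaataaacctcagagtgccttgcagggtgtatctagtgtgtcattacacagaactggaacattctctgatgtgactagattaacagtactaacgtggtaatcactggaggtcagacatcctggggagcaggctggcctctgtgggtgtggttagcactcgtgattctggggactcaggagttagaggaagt

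Of the 10 genes, 8 had a promoter entry, with 2 starts for Foxp3, and Icos and Lag3 had none. Both strands were searched for 5 letter patterns. TTCNNNGAA, the core of a gamma-activated site, occurs in 7.02% of 32851 RefSeq mouse promoter windows of the same length. GAAANNGAA, from the interferon-stimulated response element, occurs in 7.13%. GGGANNTTC, a kappaB-like pattern, occurs in 3.23%. TGANTCA, the AP-1 pattern, occurs in 6.75%. TATAAA, the TATA box, occurs in 12.4%. The capitals mark the matches, which are in Cd274 a kappaB-like pattern and then an interferon-stimulated response element pattern, both on the minus strand, and in Havcr2 an AP-1 pattern. The Pdcd1lg2 window held none of the 5 patterns. Among the other members Ctla4 had an interferon-stimulated response element pattern, and Foxp3 a TATA box at its first start and a gamma-activated site pattern at its second. The matches shown do not overlap. A match describes letters and not a bound site.

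Cells with at least 2 Cd3 UMIs made up 66 of 836 kept cells in late KIC (7.90%), 22 of 3529 in early KIC (0.623%), 27 of 1034 in late KPC (2.61%), 35 of 2933 in late KPfC (1.19%) and 113 of 2386 in normal pancreas (4.74%). Exact 95% binomial intervals ran from 6.16 to 9.94%, 0.391 to 0.942%, 1.73 to 3.78%, 0.833 to 1.66% and 3.92 to 5.67% in that order, and these intervals, like all others given here, cover counting error only. These are shares of captured cells. Among kept cells 52 barcodes occurred in more than 1 library, 5 of them in the 263 Cd3 cells. Depth differed between the libraries, with a median of 9942 UMIs per Cd3 cell in late KIC, 2107 in early KIC, 1072 in late KPC, 3655 in late KPfC and 3501 in normal pancreas.

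The Cd3 rule did not pick T cells alone. Of the 263 cells, 153 lay in the T cell-like cluster (25 in late KIC, 14 in early KIC, 26 in late KPC, 29 in late KPfC and 59 in normal pancreas) and 110 lay elsewhere. In late KIC, 15 lay in epithelial or mesenchymal tumour-like clusters and 13 in macrophage, monocyte or dendritic-like clusters, and 34 of the 66 carried at least 2 UMIs of epithelial keratins and Epcam, against 0 of 22 in early KIC, 0 of 27 in late KPC, 7 of 35 in late KPfC and 7 of 113 in normal pancreas. All 8 T cell markers in the tables were detected in each library, but their summed level was 615 CPM in late KIC (UMIs of a gene scaled to a common total of 1000000 UMIs) and between 1619 and 2720 CPM in the other libraries. Inside the T cell-like cluster the same sum was 2019 CPM in late KIC and between 2481 and 2909 CPM elsewhere. Doublets were not removed.

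**Figure D1:**
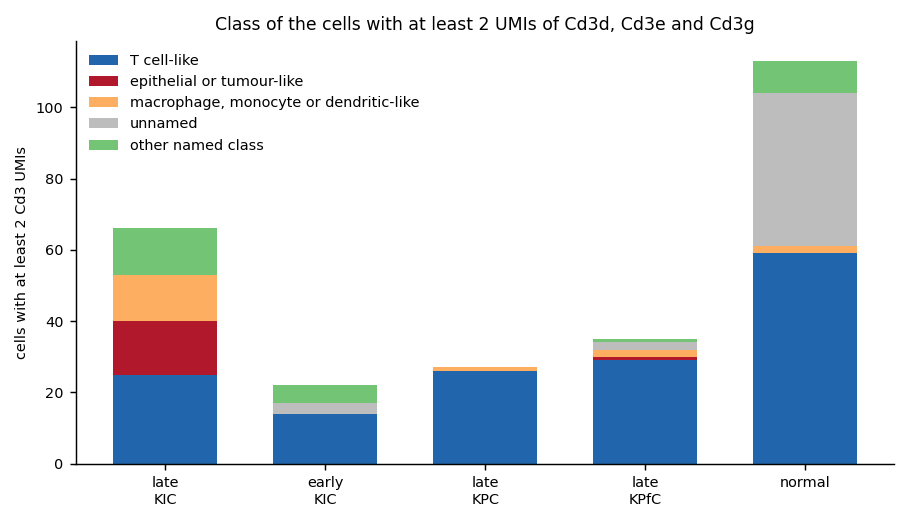
Number of cells with at least 2 UMIs of Cd3d, Cd3e and Cd3g in each library, coloured by the class of the cluster that held them. In late KIC 25 of 66 lay in the T cell-like cluster, and in late KPC 26 of 27 did.

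In normal pancreas 43 of the 113 Cd3 cells lay in unnamed clusters, and 8 acinar markers took 205964 CPM of the UMIs of its Cd3 cells. The same markers took 51935 CPM in its T cell-like cluster subset, against 14625 CPM in that of early KIC and at most 55.2 CPM in those of late KIC, late KPC and late KPfC. Each member is therefore given for all Cd3 cells and for the 153 in the T cell-like cluster, a subset chosen after the data were seen. That cluster was led by the mast cell proteases Mcpt1 and Mcpt2 together with Ccl5, Cd3d, Nkg7 and Cd3g, and its second-best match was innate lymphoid cells. Of its 300 cells, 90 had no Cd3 UMI, and these are left out of the 153. Cd4 was found in 16, 0, 4, 5 and 18 Cd3 cells, and Cd8a or Cd8b1 in 13, 4, 0, 13 and 28, of late KIC, early KIC, late KPC, late KPfC and normal pancreas.

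Ctla4, the inhibitory receptor for B7, was the receptor seen most often in late KIC and late KPC. It was found in 27 of 66 Cd3 cells of late KIC (40.9%), 5 of 22 of early KIC (22.7%), 9 of 27 of late KPC (33.3%), 13 of 35 of late KPfC (37.1%) and 19 of 113 of normal pancreas (16.8%). Within the T cell-like cluster the counts were 19 of 25 in late KIC (76.0%, interval 54.9 to 90.6%), 5 of 14 in early KIC (35.7%, 12.8 to 64.9%), 9 of 26 in late KPC (34.6%, 17.2 to 55.7%), 10 of 29 in late KPfC (34.5%, 17.9 to 54.3%) and 14 of 59 in normal pancreas (23.7%, 13.6 to 36.6%). The interval of late KIC lay above those of late KPfC and normal pancreas and overlapped those of early KIC and late KPC.

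Late KIC cells were also the deepest, so the share was read again with each cell thinned to 1000 UMIs. Thinned, Ctla4 was left in 10.6% of Cd3 cells of late KIC, 9.09% of early KIC, 23.5% of late KPC, 14.3% of late KPfC and 5.31% of normal pancreas, and 10 late KPC cells fell out for being shallower. These thinned intervals overlapped among all 5 libraries. By CPM, which does not depend on depth in the same way, Ctla4 stood at 302 in the T cell-like cluster subset of late KIC (Poisson interval 239 to 377), 129 in early KIC (42.0 to 302), 282 in late KPC (141 to 505), 150 in late KPfC (90.2 to 234) and 144 in normal pancreas (96.6 to 207). By these intervals late KIC lay above late KPfC and normal pancreas, and late KPC did not separate from any library. The Poisson interval takes UMIs as independent, but of the 78 late KIC UMIs 17 came from a single cell and 12 from another. The level without these cells was not computed.

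The level in all Cd3 cells, whose UMIs include those of other cell types, gave another order. It was 82.7 CPM in late KIC, 89.99 in early KIC, 267 in late KPC, 116 in late KPfC and 66.7 in normal pancreas. Fibroblast-like cells, which should lack Ctla4, held it in 1 of 49 cells of late KIC, 3 of 1353 of early KIC and 0 of 52, 23 and 397 cells of late KPC, late KPfC and normal pancreas. Their median depths were 15003, 1725, 2095, 14467 and 5139 UMIs in that order, at or above the depth of the Cd3 cells in all libraries but early KIC.

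**Figure D2:**
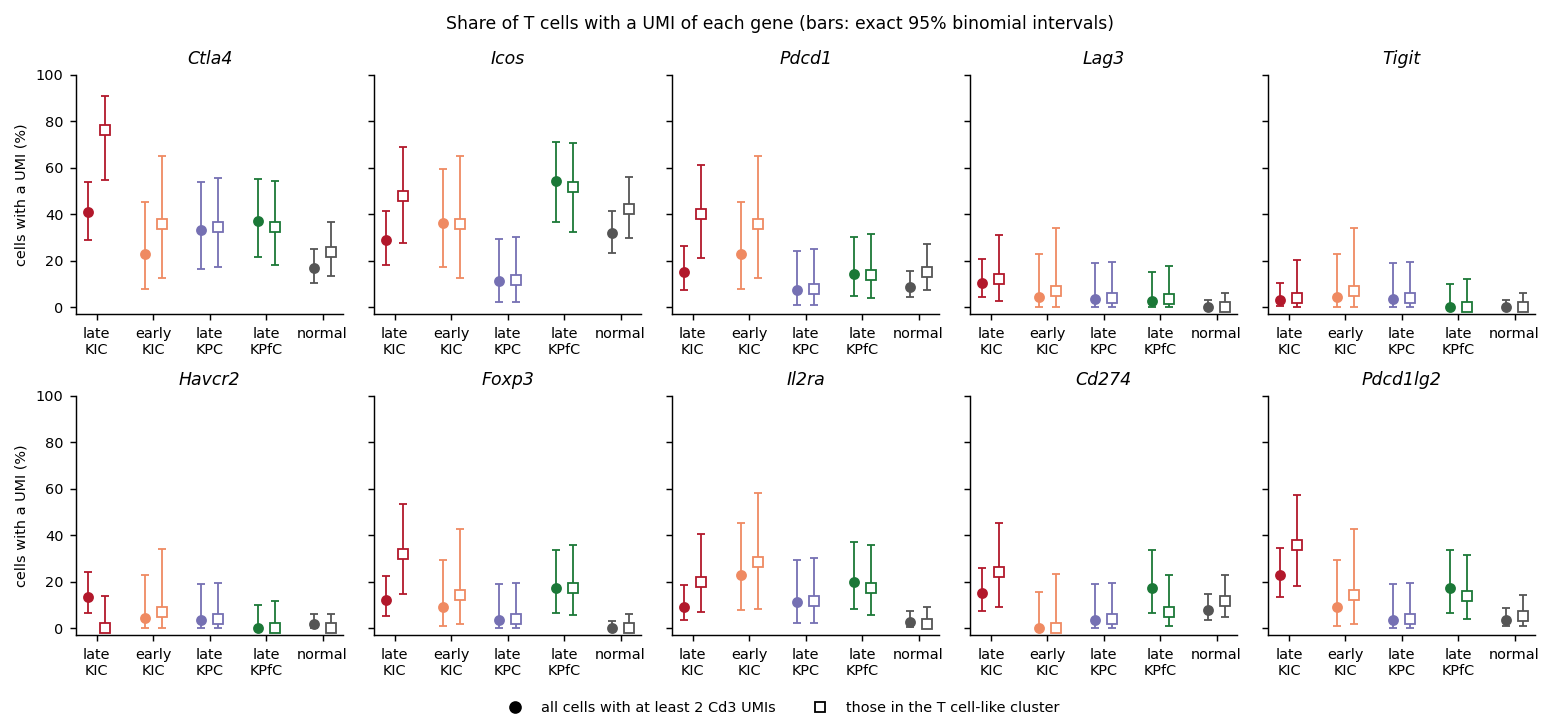
Share of cells with a UMI of each of the 10 genes, in percent, by library, with exact 95% binomial intervals. Filled circles are all Cd3 cells and open squares those in the T cell-like cluster. Ctla4 reached 76.0% in the T cell-like cluster subset of late KIC, while Lag3, Tigit and Havcr2 stayed at or under 12% in every T cell-like cluster subset.

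Icos, the costimulatory receptor next to Ctla4, was not ordered as Ctla4 was. It was found in 19 of 66 Cd3 cells of late KIC (28.8%), 8 of 22 of early KIC (36.4%), 3 of 27 of late KPC (11.1%), 19 of 35 of late KPfC (54.3%) and 36 of 113 of normal pancreas (31.9%). In the T cell-like cluster its level was 128 CPM in late KIC (88.0 to 180), 233 in early KIC (106 to 442), 128 in late KPC (41.6 to 299), 331 in late KPfC (239 to 448) and 328 in normal pancreas (254 to 418). Late KIC lay below late KPfC and normal pancreas beyond counting error. In that subset Ctla4 gave 78 UMIs and Icos 33 in late KIC, and Ctla4 gave 29 and Icos 66 in normal pancreas. In fibroblast-like cells Icos was found in 2 of 49 of late KIC, 9 of 1353 of early KIC, 4 of 397 of normal pancreas and none of the 52 and 23 of late KPC and late KPfC.

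Pdcd1, which encodes PD-1, was found in 10 of 66 Cd3 cells of late KIC, 5 of 22 of early KIC, 2 of 27 of late KPC, 5 of 35 of late KPfC and 10 of 113 of normal pancreas. All 10 of the late KIC cells lay in the T cell-like cluster, where they made 40.0% (21.1 to 61.3%), and all 5 of the early KIC cells did, where they made 35.7% (12.8 to 64.9%). The share in that cluster was 7.69% in late KPC, 13.8% in late KPfC and 15.3% in normal pancreas (7.22 to 27.0%), so the KIC shares were the highest and their intervals overlapped that of normal pancreas. Its level there was 96.9 CPM in late KIC, 207 in early KIC, 76.9 in late KPC, 86.8 in late KPfC and 69.6 in normal pancreas, with overlapping intervals. Thinned to 1000 UMIs, the shares in that subset were 16%, 21.4%, 0, 10.3% and 10.2% in the same order. Pdcd1 was in 3 of 1353 fibroblast-like cells of early KIC and in none of the other 4 libraries.

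Lag3, Tigit and Havcr2 were near the limit of detection in T cells. Lag3, an inhibitory receptor for MHC class II, was found in 7 of 66 Cd3 cells of late KIC, 1 of 22 of early KIC, 1 of 27 of late KPC, 1 of 35 of late KPfC and 0 of 113 of normal pancreas, where a count of 0 allows a share of up to 2.66%, taking 3 counts as the limit here and at every other count of 0. Only 3 of the 7 late KIC cells lay in the T cell-like cluster. Fibroblast-like cells held Lag3 in 4 of 49 cells of late KIC (8.16%) and 3 of 52 of late KPC (5.77%), and the shares of 10.6% in late KIC and 3.70% in late KPC were not separated from this background by their intervals. Tigit, which binds the poliovirus receptor, was found in 2 of 66, 1 of 22 and 1 of 27 Cd3 cells of late KIC, early KIC and late KPC, and in 0 of 35 and 0 of 113 of late KPfC and normal pancreas. No fibroblast-like cell held it. Over all Cd3 cells Lag3 gave 12 UMIs in late KIC and 0 in normal pancreas, where the exact interval of the ratio had a lower bound of 1.31. It gave 12 and 2 UMIs in late KIC and late KPfC, a ratio of 1.07 (0.239 to 9.85). For Tigit no difference between libraries was detectable at these depths.

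Havcr2, which encodes TIM-3, was found in 9 of 66 Cd3 cells of late KIC, 1 of 22 of early KIC, 1 of 27 of late KPC, 0 of 35 of late KPfC and 2 of 113 of normal pancreas. None of the 9 late KIC cells lay in the T cell-like cluster. Of these, 5 lay in the mesenchymal tumour-like cluster, 2 among macrophages or monocytes and 2 among dendritic-like cells, and both normal pancreas cells were dendritic-like. Among the 25 late KIC cells of the T cell-like cluster a count of 0 allows a share of up to 12%.

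Foxp3 was found in 8 of 66 Cd3 cells of late KIC (12.1%), 2 of 22 of early KIC (9.09%), 1 of 27 of late KPC (3.70%), 6 of 35 of late KPfC (17.1%) and 0 of 113 of normal pancreas, where a count of 0 allows up to 2.66%. Within the T cell-like cluster the counts were 8 of 25 (32.0%, interval 14.95 to 53.5%), 2 of 14 (14.3%, 1.78 to 42.8%), 1 of 26 (3.85%, 0.0973 to 19.6%), 5 of 29 (17.2%, 5.85 to 35.8%) and 0 of 59 (exact interval 0 to 6.06%) in that order. Late KIC lay above normal pancreas beyond counting error, and the intervals of late KPfC and normal pancreas overlapped. The level was 58.1 CPM in late KIC, 51.7 in early KIC, 25.6 in late KPC, 55.2 in late KPfC and 0 in normal pancreas, where the limit of 3 UMIs is 14.9 CPM. When the cells of the cluster without 2 Cd3 UMIs were added, normal pancreas had 1 of 104 cells with Foxp3. Fibroblast-like cells held Foxp3 in 1 of 1353 cells of early KIC, 1 of 397 of normal pancreas and 0 in the other 3 libraries.

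Il2ra, the alpha chain of the high-affinity interleukin 2 receptor, was found in 6 of 66 Cd3 cells of late KIC, 5 of 22 of early KIC, 3 of 27 of late KPC, 7 of 35 of late KPfC and 3 of 113 of normal pancreas. Its share was 9.09%, 22.7%, 11.1%, 20% and 2.66% in that order. Fibroblast-like cells of normal pancreas held it in 17 of 397 (4.28%), above the share in its Cd3 cells. They held 19 of the 37 Il2ra UMIs of that library and the T cell-like cluster held 10, so they do not give a background for this gene. Whether the normal value stands above background was not tested. In the T cell-like cluster Il2ra stood at 31.0 CPM in late KIC, 129 in early KIC, 128 in late KPC, 71.0 in late KPfC (32.5 to 135) and 9.95 in normal pancreas (1.20 to 35.9). Early KIC (42.0 to 302) and late KPC (41.6 to 299) lay above normal pancreas beyond counting error, and late KIC and late KPfC did not.

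**Figure D3:**
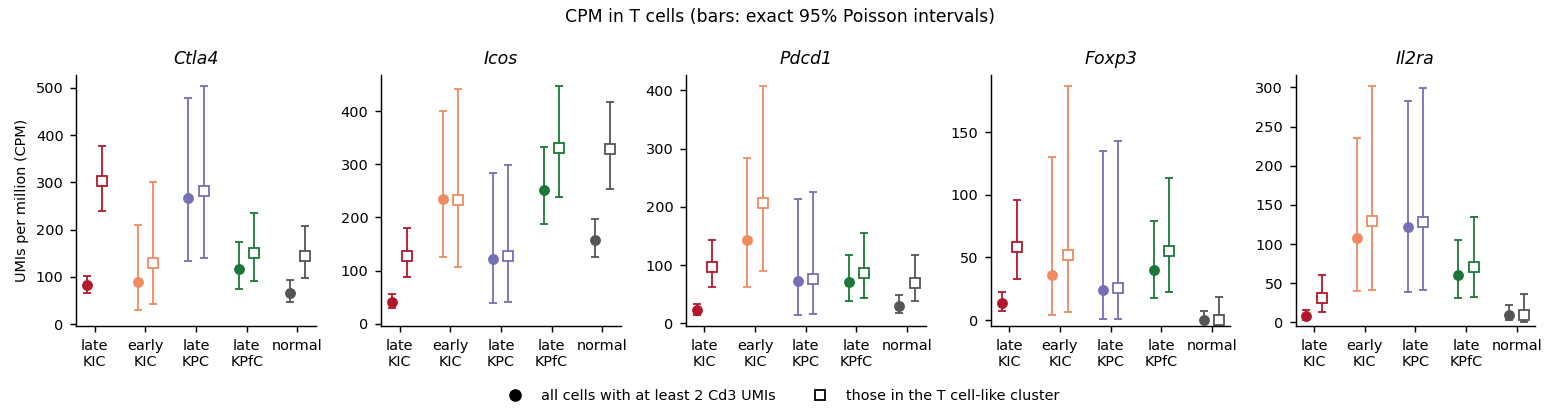
Level in CPM of 5 of the genes in all Cd3 cells (filled circles) and in those of the T cell-like cluster (open squares), by library, with exact 95% Poisson intervals and a separate linear axis for each gene. Ctla4 in late KIC stood at 82.7 CPM over all Cd3 cells and 302 CPM inside the cluster, and Foxp3 was 0 in both sets of normal pancreas.

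The 17 Cd3 cells with Foxp3 were mostly Ctla4 cells. Of these, 16 lay in the T cell-like cluster, where Ctla4 was found in 14 of 16 Foxp3 cells (87.5%) and 43 of 137 others (31.4%). Ikzf2, which encodes the regulatory T cell factor Helios, was in 16 of 16 and 44 of 137, Il2ra in 8 of 16 and 10 of 137, and Tnfrsf4, which encodes OX40, in 14 of 16 and 42 of 137. Tnfrsf9 (4-1BB) was in 11 of 16 and 24 of 137, Pdcd1 in 7 of 16 and 23 of 137, and Icos in 5 of 16 and 55 of 137. Over these pooled cells, the intervals of the 2 sets did not overlap for Ctla4, Ikzf2, Il2ra, Tnfrsf4 and Tnfrsf9, and did for Pdcd1 and Icos. The libraries were mixed unequally in the 2 sets. Late KIC gave 8 of the 16 Foxp3 cells and normal pancreas 0, while normal pancreas gave 59 of the 137 others. The part of the library in these shares was not tested.

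The Foxp3 cells were deeper, at a median of 8054 UMIs against 2978, and the part of depth in these shares was not tested. Icos did not follow the same split, but its level also differed between the libraries, so it does not serve as a control for depth. Within late KIC, where the depths were closer at medians of 10854 and 7491 UMIs, Ctla4 was in 8 of 8 Foxp3 cells and 11 of 17 others. Within late KPfC it was in 4 of 5 and 6 of 24, and Il2ra was in 3 of 5 and 2 of 24. Single late KIC cells with Foxp3 carried up to 17 Ctla4 UMIs. No library had 10 Foxp3 cells, the number set for a split by library, so these are counts over few cells.

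Ctla4 was not confined to Foxp3 cells. In the T cell-like cluster Cd8a or Cd8b1 was found in 43 Cd3 cells, of which 12 had Ctla4 and 4 had Pdcd1, and Cd4 in 26, of which 16 had Ctla4 and 10 had Pdcd1. Cd4 UMIs were missing in most cells, so a cell without one is not shown to be CD4 negative.

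Many cells held several members at once. At least 3 of the 10 were found in 17 of 66 Cd3 cells of late KIC (25.8%), 5 of 22 of early KIC (22.7%), 4 of 27 of late KPC (14.8%), 12 of 35 of late KPfC (34.3%) and 4 of 113 of normal pancreas (3.54%). In the T cell-like cluster this was 14 of 25 (56.0%), 5 of 14 (35.7%), 4 of 26 (15.4%), 8 of 29 (27.6%) and 3 of 59 (5.09%) in that order. The shares were lowest in normal pancreas in both sets, and the part of depth in them was not tested.

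Ratios of levels were formed where both libraries had at least 30 cells and a gene had at least 20 UMIs over both. In all Cd3 cells of late KIC over late KPfC, 6 of 7 measured members were at least 2-fold lower, against 11.3% of all 6114 genes measured, and 0 were higher, against 20.4%. Icos stood at 41.3 CPM in late KIC and 252 CPM in late KPfC (ratio 0.164, interval 0.108 to 0.25), Il2ra at a ratio of 0.134, Pdcd1 at 0.319 and Foxp3 at 0.335. Ctla4 stood at 0.714 (0.448 to 1.18). The summed T cell markers were lower there too, at 615 CPM in late KIC against 1933 CPM in late KPfC. The share of all genes does not take this into account. The late KIC cells carried 7484 CPM of 11 epithelial tumour markers against 1223 CPM in late KPfC, and inside the T cell-like cluster Pdcd1 and Foxp3 were 96.9 and 58.1 CPM in late KIC against 86.8 and 55.2 CPM in late KPfC. Pdcd1 and Foxp3 were therefore not lower inside the cluster, while Icos remained lower there, and Il2ra stood at 31.0 CPM in late KIC against 71.0 CPM in late KPfC with overlapping intervals. Thinned to 1000 UMIs, the log2 ratio of Pdcd1 over all Cd3 cells was -0.50, against -1.65 unthinned.

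Against normal pancreas, late KIC Cd3 cells had 1 of 5 measured members at least 2-fold higher (47.7% of all 6435 genes) and 1 lower (4.93%). Pdcd1lg2 was past 2-fold at 2.36 (0.790 to 9.48, an interval that spans 1) and Icos lower at 0.261-fold (0.178 to 0.379). In late KPfC over normal pancreas, 1 of 3 was at least 2-fold higher (38.0% of 2988 genes) and 0 lower (6.06%). Pdcd1 was higher at 2.31-fold (1.04 to 5.05), while Ctla4 stood at 1.74-fold (0.979 to 3.02) and Icos at 1.59-fold (1.10 to 2.29). The median of all genes was itself shifted, by 0.94 on the log2 scale in late KIC and 0.74 in late KPfC, and the Cd3 cells of normal pancreas carried the acinar markers given above, whose part in this shift was not tested. With the shift taken out, Pdcd1lg2 stood at 0.30 on the log2 scale in late KIC, and Pdcd1 at 0.46 and Icos at -0.07 in late KPfC, so neither call held and Icos changed direction. The counts of higher members, out of 5 and 3 measured, are too few to set the members apart from all genes.

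Over all cells of the T cell-like cluster that shift was 0.03 in late KPC over normal pancreas, -0.13 in late KPC over late KPfC and 0.09 in late KPfC over normal pancreas. There Ctla4 was the 1 of 3 measured members at least 2-fold higher in late KPC than in normal pancreas (11.4% of 2554 genes), with 0 lower (15.6%), at 274 CPM in late KPC and 93.8 CPM in normal pancreas, a ratio of 2.92 (1.75 to 4.88). It was also the 1 of 3 that was higher in late KPC than in late KPfC (10.7% of 1773 genes), with 0 lower (18.3%), and in late KPfC it stood at 107 CPM, a ratio of 2.57 (1.42 to 4.79). Icos did not separate, at 1.38 (0.897 to 2.09) against normal pancreas and 1.21 (0.749 to 1.93) against late KPfC. Both comparisons share the late KPC library. Of the cluster cells, 26 of 102 in late KPC, 29 of 42 in late KPfC and 59 of 104 in normal pancreas had at least 2 Cd3 UMIs. In those cells alone, the Ctla4 level of late KPC did not separate from any library, as given above. In late KPfC over normal pancreas Pdcd1lg2 was the 1 of 4 that was higher (10.7% of 2821 genes), with 0 lower (10.5%), at 2.12-fold with an interval from 0.926 to 4.91, and Ctla4 was at 1.14-fold (0.610 to 2.06).

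The pathway lists placed these levels among other T cell genes. In the T cell-like cluster of late KPfC over normal pancreas, the regulatory T cell effector list had 5 genes past 2-fold upwards and 1 downwards out of 10 measured, beside 10.7% and 10.5% of all genes, and its median log2 ratio was 1.01 against 0.09 for all genes. Capg was higher at 5.42-fold, Klrg1 at 5.26-fold, Tnfrsf4, one of the genes that lead the cluster, at 4.01-fold and Tnfrsf9 at 3.69-fold, and Izumo1r, the folate receptor 4 of regulatory T cells, was lower at 0.444-fold. Of 9 naive and memory genes 3 were lower and 0 higher, beside the same shares of all genes, with Slamf6 at 0.116-fold, Ccr7, which also leads the cluster, at 0.170-fold and Lef1, a factor of naive T cells, at 0.259-fold. The cytotoxic list had 0 of 5 higher or lower. In late KPC over normal pancreas 2 of 9 effector genes were higher, beside 11.4% of all genes, with Il1rl1 at 2.92-fold and Tnfrsf4 at 2.14-fold, 4 of 9 naive genes were lower, beside 15.6% of all genes, with Bcl2 at 0.300-fold and Klf2 at 0.404-fold, and 5 of 5 cytotoxic genes were lower.

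The 5 cytotoxic genes were lower in the late KPC cluster than in late KPfC as well. Gzmb, which encodes granzyme B, was at 0 CPM in late KPC against 276 CPM in normal pancreas, Gzma was at 8.30 CPM against 287 CPM, and Ccl5 and Nkg7, which lead the cluster, were at 0.0170-fold and 0.0459-fold. Cd8a or Cd8b1 was found in 6 of 102 cluster cells of late KPC, none of them among its 27 Cd3 cells, against 33 of 104 of normal pancreas, and the 5 NK cell markers summed to 1 UMI over its 102 cluster cells against 176 UMIs over 104 cells of normal pancreas. The part of these cells in the Ctla4 level was not tested. Over all Cd3 cells of late KPfC and normal pancreas, where the median shift was 0.74, 8 of 10 effector genes, 4 of 5 cytotoxic genes and 4 of 6 dysfunction-associated genes were at least 2-fold higher, beside 38.0% of all genes, the last led by Nr4a2 at 4.65-fold and Id2 at 4.18-fold. Among the effector genes Areg was at least 59.9-fold higher, Klrg1 15.8-fold and Il1rl1 11.6-fold, and among the cytotoxic genes Gzmb was 4.19-fold higher. Areg is also among the leading genes of a macrophage cluster of which late KPfC gave 684 of 694 cells. Macrophage markers stood at 2250 CPM in the Cd3 cells of late KPfC and 95.3 CPM in those of normal pancreas. Their part in these ratios was not tested.

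In the T cell-like cluster of late KPfC over normal pancreas the dysfunction-associated list had 0 of 7 genes past 2-fold, the interleukin 2 pathway list 0 higher and 1 lower of 7, and the costimulatory receptor list 2 higher and 1 lower of 5. Among other inhibitory receptors 0 were higher and 1 lower of 3. Beside 10.7% higher and 10.5% lower of all genes, these counts rest on few genes and do not set the lists apart.

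Cd274 and Pdcd1lg2 were found in some Cd3 cells. Cd274 was in 10 of 66, 0 of 22, 1 of 27, 6 of 35 and 9 of 113 cells of late KIC, early KIC, late KPC, late KPfC and normal pancreas, and Pdcd1lg2 in 15 of 66, 2 of 22, 1 of 27, 6 of 35 and 4 of 113. Inside the T cell-like cluster Pdcd1lg2 was in 9 of 25 cells of late KIC (36.0%), 2 of 14 of early KIC, 1 of 26 of late KPC, 4 of 29 of late KPfC (13.8%) and 3 of 59 of normal pancreas (5.09%). No fibroblast-like cell of late KIC held either ligand. Macrophage markers stood at 887 CPM in that late KIC subset and 19.9 CPM in that of normal pancreas, and their part in the ligand UMIs was not tested.

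Among dendritic-like, macrophage or monocyte-like, tumour-like and fibroblast-like cells, the dendritic-like ones carried the highest level of Cd274 in all 5 libraries and the macrophages came next. Outside these 4 classes, B-like cells of normal pancreas stood at 47.3 CPM and neutrophil-like cells of late KPfC at 65.9 CPM. In dendritic-like cells Cd274 was found in 20 of 35 cells of late KIC (57.1%), 24 of 133 of early KIC (18.1%), 9 of 27 of late KPC (33.3%), 50 of 109 of late KPfC (45.9%) and 6 of 34 of normal pancreas (17.7%). Its level was 157 CPM (114 to 212), 117 CPM (80.5 to 164), 285 CPM (163 to 463), 98.1 CPM (77.4 to 123) and 39.9 CPM (18.2 to 75.7) in that order. Each tumour library lay above normal pancreas beyond counting error in these clusters. Late KIC over normal pancreas was 3.95-fold (1.90 to 9.21), early KIC over normal pancreas 2.93-fold (1.37 to 6.97) and late KPfC over normal pancreas 2.46-fold (1.23 to 5.58), and the late KIC over early KIC ratio of 1.35 (0.835 to 2.19) did not separate. With dendritic cells taken by marker gates instead, which held 235 late KIC cells in place of 35, late KIC over normal pancreas turned round, to -1.74 on the log2 scale. Late KPC, with 27 cells, was under the number set for a ratio.

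In macrophage or monocyte-like cells Cd274 was found in 115 of 298 cells of late KIC (38.6%), 50 of 765 of early KIC (6.54%), 87 of 524 of late KPC (16.6%), 545 of 1749 of late KPfC (31.2%) and 2 of 49 of normal pancreas (4.08%). Thinned to 1000 UMIs the shares were 7.05%, 3.27%, 6.86%, 5.603% and 2.04%, at median depths before thinning of 7256, 1772, 2310, 7749 and 3766 UMIs in the same order. The thinned shares lay closer together than the unthinned ones. The level was 80.9 CPM in late KIC (70.0 to 92.9), 36.7 in early KIC (27.6 to 47.8), 73.3 in late KPC (60.3 to 88.3), 54.4 in late KPfC (50.7 to 58.4) and 9.74 in normal pancreas (1.18 to 35.2). Late KIC stood 2.20-fold above early KIC (1.63 to 3.03) and 1.49-fold above late KPfC (1.26 to 1.74), and late KPC 1.35-fold above late KPfC (1.09 to 1.65). Ratios to normal pancreas were 8.31, 7.53 and 5.59 for late KIC, late KPC and late KPfC but rest on 2 UMIs there.

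These macrophages were not the same cells in each library. Clusters 3 and 6 held most of those of late KIC, clusters 5 and 18 those of early KIC and normal pancreas, cluster 3 those of late KPC and clusters 2, 6 and 8 those of late KPfC. Cluster 3 was led by Chil3, Ear1, Ear2 and Arg1, cluster 6 by Ccl17, Mmp12 and C1q genes, and cluster 5 by Retnla and Lyz1. A difference in the class can therefore be one of which macrophages were captured or of the level in each, and these cannot be told apart here.

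Pdcd1lg2 was found in fewer macrophages than Cd274 and ordered the libraries otherwise. In macrophage or monocyte-like cells it was found in 31 of 298 cells of late KIC (10.4%), 5 of 765 of early KIC (0.654%), 16 of 524 of late KPC (3.05%), 257 of 1749 of late KPfC (14.7%) and 0 of 49 of normal pancreas, where a count of 0 allows up to 6.12%. The level was 20.01 CPM, 3.34 CPM, 10.6 CPM, 24.95 CPM and 0 CPM in that order. Late KIC stood 6.00-fold above early KIC (2.40 to 19.3) and at 0.802 of late KPfC (0.582 to 1.08), and late KPC at 0.423 of late KPfC (0.239 to 0.697). On the log2 scale the late KIC over late KPfC ratio was -0.32, with -1.03 by marker gates and 0.23 in thinned cells, and late KPC over late KPfC was -1.24, with -0.64 by marker gates. Late KPC was thus above late KPfC for Cd274 and below it for Pdcd1lg2. All 4 measured members were at least 2-fold higher in late KIC than in early KIC macrophages (10.4% of 8237 genes) and 0 lower (8.64%), the others being Lag3 at 5.39-fold (2.14 to 17.4) and Havcr2 at 2.24-fold (1.32 to 4.02).

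In dendritic-like cells Pdcd1lg2 was found in 15 of 35 cells of late KIC (42.9%), 10 of 133 of early KIC (7.52%), 3 of 27 of late KPC (11.1%), 54 of 109 of late KPfC (49.5%) and 0 of 34 of normal pancreas. Its level was 124 CPM (86.2 to 174), 35.5 CPM (17.0 to 65.2), 53.4 CPM (11.01 to 156), 106 CPM (84.2 to 131) and 0 CPM, where 3 UMIs are 13.3 CPM. Late KIC was 3.51-fold above early KIC (1.70 to 7.97) and 1.18-fold above late KPfC (0.766 to 1.78). On the log2 scale the ratio to early KIC was 1.81, with 0.60 in thinned cells and -0.89 by marker gates, which turned it round. With the floor of 3 UMIs for normal pancreas, the Pdcd1lg2 level was at least 9.36-fold higher in late KIC, 2.67-fold in early KIC and 7.95-fold in late KPfC. These bounds leave out the counting error of the tumour libraries. Of 3 measured members 1 was at least 2-fold higher in late KIC than in early KIC (9.91% of 2836 genes) and 0 lower (5.99%).

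Tumour cells held little of either ligand. Cd274 was found in 8 of the 281 late KIC cells in the epithelial or tumour-like class, 1 of 355 of early KIC, 0 of 61 of late KPC, 21 of 495 of late KPfC and 0 of 9 of normal pancreas. Its level was 1.72 CPM in late KIC and 3.77 CPM in late KPfC, against 80.9 and 54.4 CPM in the macrophages of those libraries. Pdcd1lg2 was found in 11 of 281 cells of late KIC, 0 of 355 of early KIC, 0 of 61 of late KPC and 16 of 495 of late KPfC. These cells were deep, with medians of 20988 UMIs in late KIC and 10885 in late KPfC. Fibroblast-like cells held Cd274 in 0 of 49 cells of late KIC and 2 of 23 of late KPfC, an interval of 1.07 to 28.0% that spans the late KPfC tumour share of 4.24%.

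**Figure D4:**
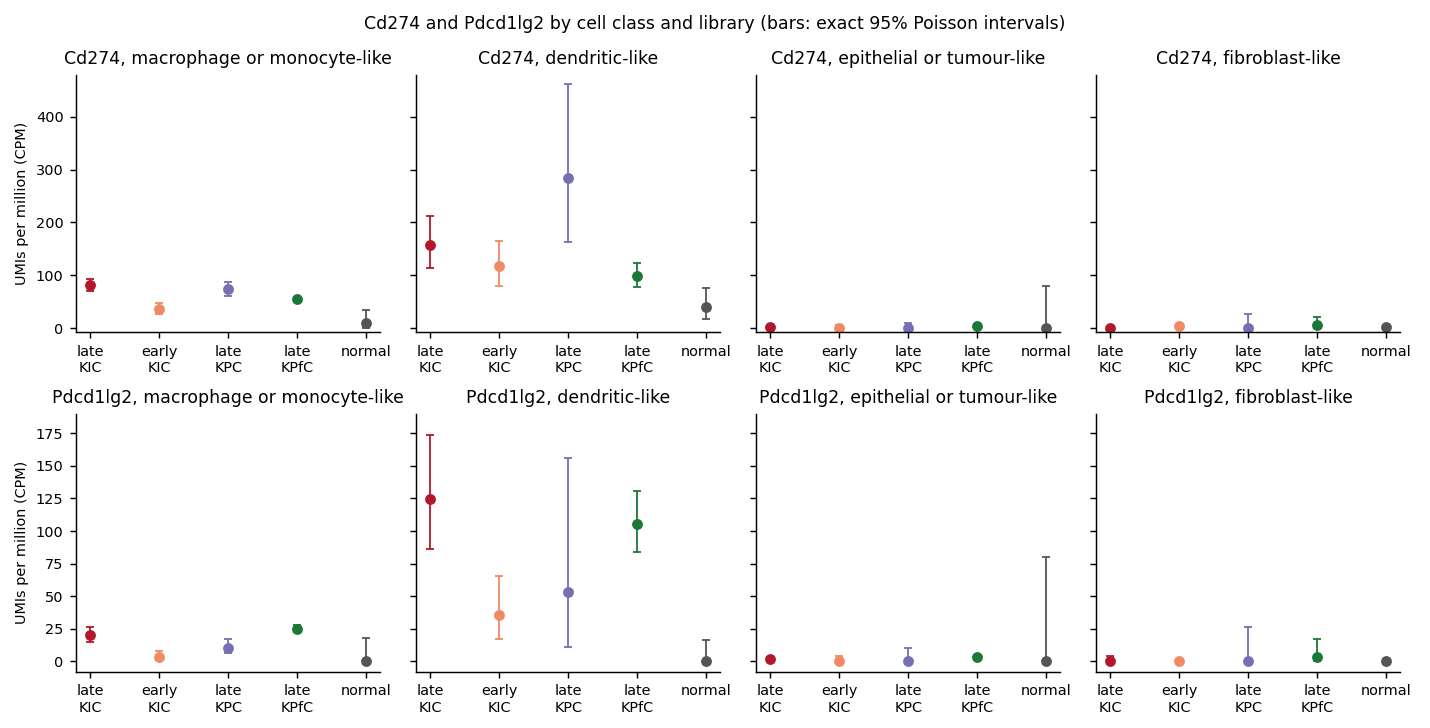
Level in CPM of Cd274 (top) and Pdcd1lg2 (bottom) in macrophage or monocyte-like, dendritic-like, epithelial or tumour-like and fibroblast-like cells, by library, with exact 95% Poisson intervals on linear axes shared along each row. Dendritic-like cells are highest for both genes in late KIC, at 157 and 124 CPM, and tumour-like cells stay under 4 CPM where any UMI was found.

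Some cells held both ligands. In late KIC both were found in 10 dendritic-like cells, 50% of those with Cd274 and 66.7% of those with Pdcd1lg2, and in 12 macrophages, 10.4% and 38.7%. In late KPfC both were found in 28 dendritic-like cells, 56.0% and 51.9%, and in 90 macrophages, 16.5% and 35.0%. Ccr7, the receptor that guides mature dendritic cells to lymph nodes, was used to divide the dendritic-like cells. In late KPfC Cd274 was found in 42 of 77 cells with Ccr7 (54.6%) and 8 of 32 without (25%), and Pdcd1lg2 in 47 of 77 (61.0%) and 7 of 32 (21.9%), at median depths of 7439 and 6058 UMIs. The intervals overlapped for Cd274 and did not for Pdcd1lg2. In late KIC Cd274 was found in 12 of 22 with Ccr7 and 8 of 13 without. Ccr7 is a gene that leads this cluster.

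Within late KPfC the macrophage clusters carried the ligands unequally. Pdcd1lg2 was in 33.9% of cells of cluster 6, led by Ccl17 and Mmp12, and in 0.794% of cluster 25, led by Alox15 and Prg4, where Cd274 was in 46.0%. Neutrophil-like cells of late KPfC held Cd274 in 24 of 105 cells (22.9%) and Pdcd1lg2 in 25 of 105 (23.8%), B-like cells of normal pancreas held Cd274 in 21 of 126 (16.7%) and mesothelial-like cells of late KPfC in 16 of 160 (10.0%).

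The partners of the other receptors were read in the same classes. Cd80 and Cd86, the B7 ligands of CTLA-4, stood at 39.2 and 105 CPM in macrophage or monocyte-like cells of late KIC, 22.0 and 107 CPM of early KIC, 52.8 and 84.5 CPM of late KPC, 30.7 and 90.2 CPM of late KPfC and 9.74 and 214 CPM of normal pancreas. Cd80 was thus lowest and Cd86 highest in normal pancreas by value. The Cd80 level there, the same 9.74 CPM as that of Cd274, rests on 2 UMIs, so its rank is not shown to be beyond counting error. In dendritic-like cells Cd80 was found in 51.4%, 11.3%, 25.9%, 44.0% and 20.6% and Cd86 in 80.0%, 23.3%, 37.0%, 68.8% and 52.9% of cells in that order of libraries. Icosl, the ligand of ICOS, was found in 8.57%, 2.26%, 3.70%, 7.34% and 20.6% of them. The median depths of these dendritic-like cells were 6925, 1956, 2082, 7106 and 5945 UMIs in the same order, and the part of depth in these shares was not tested.

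Tumour-like cells held the partners of TIGIT more often than those of PD-1. Pvr was found in 49.8% of late KIC, 13.5% of early KIC, 19.7% of late KPC, 40.0% of late KPfC and 11.1% of normal pancreas cells of the epithelial or tumour-like class, and Nectin2 in 53.4%, 36.3%, 36.1%, 60.8% and 44.4%. Lgals9, which encodes the TIM-3 ligand galectin-9, was found in 33.8%, 14.9%, 11.5%, 47.1% and 11.1% of them. The median depths of this class were 20988, 1982, 2610, 10885 and 3522 UMIs in the same order, with 9 cells in normal pancreas. The part of depth in these shares was not tested, so they are not compared between libraries. Of 11 measured genes of the list of ligands on other cells, 2 were at least 2-fold higher and 3 lower in late KIC than in early KIC macrophages, beside 10.4% and 8.64% of all genes, led by Nectin3 at 28.2-fold and Cd200 at 0.281-fold. Of 10 interferon-gamma response genes around Cd274, 0 were higher and 1 lower there, close to the same shares, with Irf1 at 0.252-fold, while Cd274 itself was 2.20-fold higher.

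Havcr2 was read outside T cells because its UMIs lay there, a choice made after the data were seen. TIM-3 is known on macrophages and dendritic cells as well as T cells. Dendritic-like cells held 84.2 CPM in late KIC (53.4 to 126), 53.2 in early KIC (29.8 to 87.7), 196 in late KPC (97.7 to 350), 34.4 in late KPfC (22.7 to 50.02) and 142 in normal pancreas (97.0 to 200). Early KIC at 0.375 (0.189 to 0.713) and late KPfC at 0.243 (0.140 to 0.418) of the normal level were lower, and late KIC at 0.594 (0.332 to 1.05) did not separate. Havcr2 and Cd274 thus differed from normal pancreas in opposite directions in the dendritic-like cells of early KIC and late KPfC.

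Late KIC tumour cells also held Havcr2. It was found in 62 of 245 mesenchymal tumour-like cells (25.3%, interval 19.99 to 31.2%), at 12.5 CPM (10.0 to 15.4), and in 0 of 36 epithelial tumour-like, 0 of 49 fibroblast-like and 0 of 36 mesothelial-like cells of the same library. The median depth of the mesenchymal tumour-like cells was 23792 UMIs against 15003 for the fibroblast-like cells, whose count of 0 allows up to 3.58 CPM. Thinned to 1000 UMIs the share was 1.22%, 3 cells.

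All but 107 of these cells carried a UMI of the macrophage complement genes C1qa, C1qb or C1qc, and the part of macrophage RNA in the Havcr2 level was not tested with other macrophage genes. The level was 12.9 CPM in the 107 cells without and 12.9 CPM in the 202 with no Cd3 UMI. It was 11.9 CPM in the 131 cells with Xist and no Y-linked UMI and 11.7 CPM in the 73 with the reverse. Macrophage or monocyte-like cells of late KIC stood at 27.0 CPM (20.8 to 34.3). Over the whole epithelial or tumour-like class Havcr2 stood at 11.8 CPM in late KIC, 1.13 in early KIC, 2.79 in late KPC and 1.81 in late KPfC, and late KIC was 6.50-fold above late KPfC (3.54 to 13.1). In late KPfC 98.0% of the class lay in the epithelial cluster 4 and in late KIC 87.2% lay in the mesenchymal cluster 16, so the libraries differ in tumour cell type too. Cluster 16 was led by Meg3, F2r, Krt8 and Krt18.

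**Figure D5:**
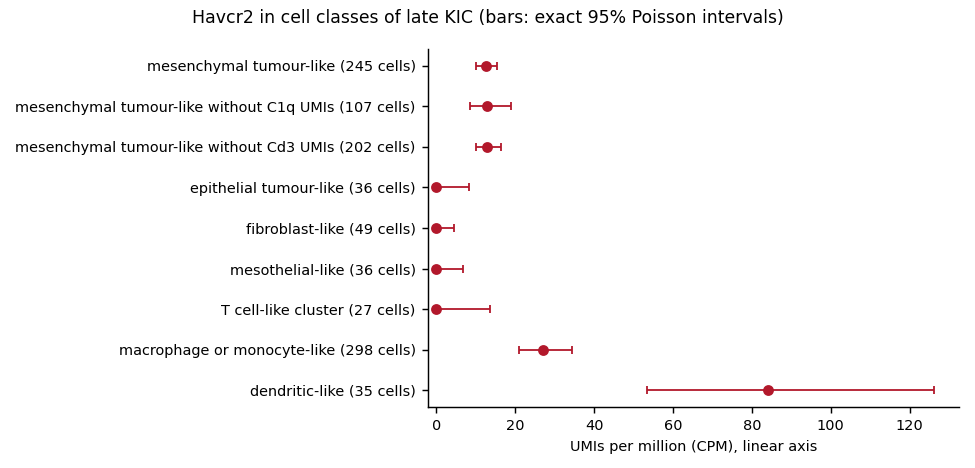
Level of Havcr2 in CPM in cell classes of late KIC, with exact 95% Poisson intervals on a linear axis and the number of cells beside each class. Mesenchymal tumour-like cells stand at 12.5 CPM. Those without C1q UMIs and, as a separate subset, those without Cd3 UMIs each stand at 12.9 CPM. Epithelial, fibroblast, mesothelial and T cell-like cells stand at 0 and macrophages at 27.0 CPM. The 0 in T cell-like cells rests on 27 cells, and its interval, up to 13.6 CPM, overlaps that of the mesenchymal tumour-like cells.

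The genes detected in the same Cd3 cells as a member were ranked by the phi coefficient, averaged over late KIC, late KPfC and normal pancreas with 4141 genes compared and 214 cells. Cells of a library share depth and free RNA, and values of this size in sparse counts are a description. Ctla4 was most like Vim (0.42), Tnfrsf4 (0.41), Ptprcap (0.40), Itgb7 (0.37) and Cd5 (0.35). Icos was most like Ptprcap (0.35), Gpr183 (0.32), Traf1 (0.32), Ccr2 (0.30) and Sri (0.29). Pdcd1 was most like Tnfrsf9 (0.44), Rbmxl1 (0.36), Ikzf2 (0.35), Rora (0.33) and Serpinb6b (0.31). Foxp3, over late KIC and late KPfC, was most like Cd6 (0.60), Tnfrsf13b (0.56), Cd5 (0.55), Sla (0.52) and Gna15 (0.51). Il2ra, over the same libraries, was most like Klrg1 (0.65), Rcsd1 (0.52), Tnfrsf25 (0.51), Tox (0.51) and Gna15 (0.49). Cd274 was most like Spcs3 (0.36), Nub1 (0.36), Mybbp1a (0.31), Pigyl (0.30) and Fam120a (0.30), and Pdcd1lg2, over late KIC and late KPfC, was most like Tnfrsf4 (0.49), 2310001H17Rik (0.47), Psmd7 (0.46), Isyna1 (0.46) and Cyb5b (0.45). The means hid differences between libraries, as for Gpr183 with Icos, from -0.0027 to 0.54. In all cells of the T cell-like cluster, where late KIC was left out, the ranking mostly differed. Of these genes, Ptprcap and Tnfrsf4 recurred for Ctla4, Rora for Pdcd1 and Cd6 for Foxp3. None recurred for Icos, Il2ra, Cd274 or Pdcd1lg2. Lag3 and Havcr2 had enough cells in late KIC alone, where Pisd (0.54), Ing5 (0.54), Mtor (0.54), Mbd4 (0.53) and Zfp341 (0.53) came nearest to Lag3 and S100b (0.64), E130311K13Rik (0.64), Tbc1d1 (0.61), Mgat3 (0.58) and Syt11 (0.55) to Havcr2. The late KIC Cd3 cells with Havcr2 all lay in tumour-like, macrophage or dendritic-like clusters, so its list does not describe T cells.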

How the data were processed

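Each deposited value is a UMI count of 1 gene in 1 cell barcode, a whole number with no normalization, which the authors made with Cell Ranger 2.1.1 on GRCm38 per the submitters' processing notes. Which annotation release they used: not given in the sources used here. The 5 libraries held between 3488871 and 26749820 UMIs. A barcode needed 200 genes and 500 UMIs, with mitochondrial UMIs no higher than 20%, and the kept barcodes were clustered with scanpy 1.11.5 (2000 variable genes, 30 components, 15 neighbours, Leiden resolution 1). Clusters were named from marker lists. Trac, Trbc1, Trbc2, Trdc and Iglc2 have no row in the gene tables, Nectin2 and Nectin3 are listed as Pvrl2 and Pvrl3, and 56 symbols are listed more than once. No doublet caller was run.

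From these counts the share of cells with a UMI (exact binomial intervals), the CPM of a class (UMIs of a gene over all UMIs of the class, exact Poisson intervals) and ratios of CPM (exact conditional intervals) were computed with scipy 1.17.1 at 95% confidence. A gene with 0 UMIs was set to 3 counts for a limit or a bound. A fold bound formed this way leaves out the counting error of the other library. A gene was called at 2-fold with at least 20 UMIs over both libraries. The ratio was tested on simulated data. All 10 members are named, and of each pathway list up to 4 genes furthest from 1 in each direction; likeness names the 5 highest mean phi coefficients over genes seen in 5 to 90% of T cells. The members and lists were chosen with earlier results of these data known. Alternatives were other Cd3 minimums, a stricter cell filter, thinning, cells with markers of other classes left out, another scaling, no minimum of UMIs, equal weight per cell, Xist cells alone and marker gates, and, added after the data were seen, the T cell-like cluster.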

Additional observations from a re-analysis of the deposited data

How the results depend on the processing

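No paired analysis was possible because each group is 1 library. The share of Cd3 cells moved with its rule. With at least 1 Cd3 UMI it was 17.2% in late KIC, 1.98% in early KIC, 7.06% in late KPC, 2.18% in late KPfC and 9.30% in normal pancreas, and with at least 3 it was 5.02% in late KIC, 0.368% in early KIC, 1.26% in late KPC and 3.10% in normal pancreas. With cells carrying markers of other classes left out it was 1.79% in late KIC, 0.340% in early KIC and 0.307% in late KPfC, and the stricter cell filter gave 8.51% in normal pancreas. Cd3 cells in the T cell-like cluster, chosen after the data were seen, were 2.99% of late KIC and 2.47% of normal pancreas, and all its cells 3.23% of late KIC and 9.87% of late KPC.

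Counts of members past 2-fold rest on few genes. In late KIC over normal pancreas, 1 was higher as reported, 2 with no minimum of UMIs, 3 with at least 1 Cd3 UMI and 0 with at least 3 or with scaling by the median ratio, and 1 was lower, 2 with no minimum and 3 with scaling. In late KPfC over normal pancreas, 1 was higher, 5 with no minimum, 2 with at least 1 Cd3 UMI and 0 with scaling. Of 15 member ratios in T cells, 4 changed sign. In late KIC over normal pancreas, Ctla4 was 0.31 on the log2 scale, -0.24 with at least 1 Cd3 UMI and -0.63 with scaling, Cd274 was -0.71, 0.09 with at least 1 Cd3 UMI and 0.78 thinned, and Pdcd1 was -0.44, 0.09 with at least 3 Cd3 UMIs and 0.23 with equal weight per cell. In late KPfC over normal pancreas, Icos was 0.67, and -0.07 with scaling.

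Cell classes from marker gates reversed 2 dendritic log2 ratios, Cd274 in late KIC over normal pancreas at -1.74 and Pdcd1lg2 in late KIC over early KIC at -0.89. That gate took in 235 late KIC and 227 normal pancreas cells, against 35 and 34 in the cluster. In macrophages of late KIC over late KPfC, Cd274 was 0.57 and 0.26 with gates, and Pdcd1lg2 was -0.32, -1.03 with gates and 0.23 thinned. The stricter filter left all 50 member shares in T cells within their intervals and thinning moved 24 of 50. The planned split of T cells by Foxp3 in each library needed 10 Foxp3 cells, which no library had, so only counts within late KIC and late KPfC are given. Ratios of late KIC or late KPfC were not formed under settings that left under 30 cells.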
